A study of Homo sapiens with 4 samples.

Results

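The genes described here are 8 detoxifying enzymes that lung adenocarcinoma A549 cells express at high level, chosen by name from the 28283 genes of the deposited expression table. They are the aldo-keto reductases AKR1B1, AKR1B10, AKR1C1, AKR1C2 and AKR1C3, the aldehyde dehydrogenases ALDH1A1 and ALDH3A1, and GPX2. GPX2 is a glutathione peroxidase and belongs to neither of the other families. The choice also asked for an N6-methyladenosine (m6A) peak under the gene's name in both deposited peak lists, which 7 of the 8 genes have and GPX2 does not, since its name stands in 1 list only. The names, the high level and the peaks, but no difference between conditions, were the ground of the choice.

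The study asked which RNAs the m6A reader YTHDF2 acts on in lung adenocarcinoma, by m6A-seq and RNA-seq of A549 cells, a human line of alveolar epithelial tumour origin. Control cells carried a lentiviral control vector (shNC) and the other cells a lentiviral shRNA against YTHDF2 (shY2-2), and both were stable lines selected with puromycin and grown in RPMI medium with serum, so that the knockdown rests on 1 shRNA. Each line gave 1 input library, made of poly(A) RNA after fragmentation, and 1 library of RNA pulled down by an antibody to m6A (IP), which makes 4 strand-specific libraries. With 1 library of each kind per line, no difference between the lines has a replicate check, no test was made, and all ratios describe these libraries only.

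Aldo-keto reductases use NADPH to reduce aldehydes and ketones to alcohols, and aldehyde dehydrogenases use NAD or NADP to oxidise aldehydes to acids, so that both families clear reactive carbonyls such as those from lipid peroxidation and smoke. Glutathione peroxidases reduce peroxides with glutathione. Many of these genes are known targets of NRF2, a transcription factor that is constantly active in A549 cells because its inhibitor KEAP1 is mutated there. m6A is a methyl mark placed on adenosines of mRNA, mostly within the sequence GGAC and its close variants, and YTHDF2 is known to bind it and to promote decay of the bound mRNA.

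Several of the genes carry the same m6A core sequence at the same place, and the windows below are shown because the peaks compared further on lie over most of them. AKR1C1, AKR1C2 and AKR1C3 lie side by side on chromosome 10 and their coding sequences are equally long. In each window the 4 bases in capitals are GGAC or the bases that stand in its place, the sequence is that of the reference genome GRCh38 on the strand of the gene, and positions count the A of the start codon as 1. The first window, at coding position 184, is the same in all 3 genes.
AKR1C1, chr10:4966005-4966025, + strand: agcaggttGGACtggccatcc
AKR1C2, chr10:5001570-5001590, - strand: agcaggttGGACtggccatcc
AKR1C3, chr10:5096501-5096521, + strand: agcaggttGGACtggccatcc
At coding position 324, AKR1C2 and AKR1C3 hold the motif and AKR1C1 does not, and C327T is the change from AKR1C3 to AKR1C1 that removes it.
AKR1C1, chr10:4966990-4967010, + strand: cttcaattGGATtatgttgac
AKR1C2, chr10:5000583-5000603, - strand: cttcaattGGACtatgttgac
AKR1C3, chr10:5097497-5097517, + strand: gctcaattGGACtatgttgac
At coding position 541 only AKR1C3 of the 3 genes holds the motif, and A543G replaces its adenosine in both others.
AKR1C1, chr10:4968907-4968927, + strand: acaagccaGGGCtcaagtaca
AKR1C2, chr10:4998642-4998662, - strand: acaagccaGGGCtcaagtaca
AKR1C3, chr10:5099412-5099432, + strand: acaagccaGGACtcaagtaca
The windows from the other genes are those of the motif followed by T, the form GGACT, which occurs once in each of these mRNAs.
AKR1B1 coding sequence, chr7:134450819-134450839, - strand: ctgaagctGGACtacctggac
AKR1B10 coding sequence, chr7:134536735-134536755, + strand: acaaacctGGACtgaaatata
ALDH1A1 3′ UTR, chr9:72900771-72900791, - strand: aagtccttGGACtgttttgaa
ALDH3A1 coding sequence, chr17:19740433-19740453, - strand: aaatcccgGGACtatggaaga
GPX2 coding sequence, chr14:64942580-64942600, - strand: accacccgGGACttcacccag

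The levels were read from the deposited FPKM, fragments scaled to exon length and to the mapped fragments of the library, which the authors computed from the input libraries. FPKM is per length and may be set side by side between genes, but the number of fragments behind each value is unknown. The genes were chosen as enzymes of high level, so their place at the upper end of the transcriptome follows from the choice. In shNC their FPKM ran from 67.6 for AKR1C1 to 2157 for ALDH1A1, against a median of 5.18 over the 12268 genes kept, those that reached an FPKM of 1 in an input library. Together the 8 genes made up 2.45% of the summed FPKM of the shNC library and 2.00% of that of the shY2-2 library.

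ALDH1A1, the cytosolic dehydrogenase that makes retinoic acid from retinal, had the highest level of the 8 genes in shNC, an FPKM of 2157 in shNC and 1238 in shY2-2. The level in shNC was 1.74 times that in shY2-2, and the gene went from rank 4 to rank 11 of the table. ALDH3A1, a dehydrogenase of aromatic and medium-chain aldehydes that is abundant in the cornea, had an FPKM of 465 in shNC and 352 in shY2-2. Both aldehyde dehydrogenases were thus lower in the shY2-2 library, and their summed FPKM was 2622 in shNC and 1590 in shY2-2.

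AKR1B10, a reductase of retinal and other lipophilic aldehydes that is known to be high in lung cancers of smokers, had an FPKM of 1801 in shNC and 2044 in shY2-2 and went from rank 7 to rank 5. AKR1B1, aldose reductase, which turns glucose into sorbitol, had an FPKM of 175 in shNC and 144 in shY2-2. These neighbouring genes on chromosome 7 therefore differed in opposite directions.

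The AKR1C genes encode reductases of steroid hormones, among them AKR1C3, which makes testosterone and prostaglandin F, and AKR1C1, which inactivates progesterone. AKR1C2, which reduces dihydrotestosterone, had an FPKM of 455 in shNC and 494 in shY2-2. AKR1C3 had an FPKM of 335 in shNC and 313 in shY2-2, and AKR1C1 had an FPKM of 67.6 in shNC and 64.9 in shY2-2. All 3 genes lay close to the same level in both libraries, and the order AKR1C2, AKR1C3, AKR1C1 was the same in both. GPX2, the gastrointestinal glutathione peroxidase, had an FPKM of 98.3 in shNC and 109 in shY2-2.

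In the order of their levels, ALDH1A1 stood above AKR1B10 in shNC and AKR1B10 above ALDH1A1 in shY2-2. ALDH3A1 stood just above AKR1C2 in shNC (465 against 455) and below it in shY2-2 (352 against 494). The other neighbours kept their order, from AKR1C3 through AKR1B1 and GPX2 down to AKR1C1. With 1 library per line it cannot be said which neighbours differ beyond the spread between cultures.

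**Figure D1:**
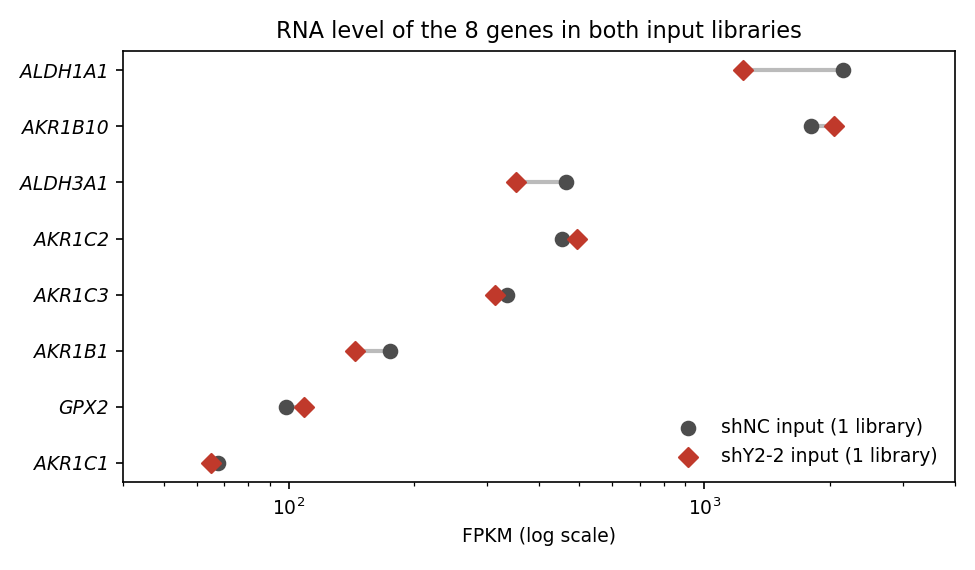
FPKM of the 8 genes on a log axis, 1 point per input library (grey circles shNC, red diamonds shY2-2), with a line joining the 2 values of each gene. ALDH1A1 has the longest line, from 2157 down to 1238, and the AKR1C1 points, 67.6 and 64.9, lie almost on each other.

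As a ratio, the difference between the lines was computed as log2((FPKM in shY2-2 + 1)/(FPKM in shNC + 1)). At the levels of the 8 genes this is close to the plain ratio of the FPKM. At low levels, such as those of YTHDF2, the pseudocount makes it smaller in size than the plain ratio. The limits on ratios given below refer to it. YTHDF2, the target of the shRNA, had an FPKM of 3.56 in shNC and 1.02 in shY2-2 (log2 ratio -1.18). The log2 ratios of the 8 genes were -0.80 for ALDH1A1, -0.40 for ALDH3A1, -0.27 for AKR1B1, -0.10 for AKR1C3, -0.06 for AKR1C1, 0.12 for AKR1C2, 0.14 for GPX2 and 0.18 for AKR1B10. Of the 8 genes, 3 were higher in shY2-2 and 5 lower, with a median of -0.08, beside a median of 0.00 over the genes kept. None of the 8 passed a log2 ratio of 1 in either direction, where 0.986% of the genes kept were above 1 and 2.14% below -1.

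A smaller limit, 1.5-fold, was passed by ALDH1A1 alone, as a lower value in shY2-2. Over the genes kept, 8.92% were lower by more than this limit and 5.38% higher, and 4.29% had a log2 ratio below that of ALDH1A1. Among the 364 genes that reached an FPKM of 100 in a library, to which all of the 8 but AKR1C1 belong, 5.77% were lower by more than 1.5-fold. These abundant genes had a median log2 ratio of 0.18, with quartiles of -0.07 and 0.36, so that genes at the level of the enzymes were, at the median, higher in shY2-2 than the rest of the table. Relative to that median, AKR1B10 lay at 0.01, AKR1C2 at -0.06 and GPX2 at -0.03, ALDH1A1 lay at -0.98 and ALDH3A1 at -0.58, and 7 of the 8 genes were lower in shY2-2. The direction of AKR1C2 and GPX2 thus depends on which genes the libraries are centred on, while all 5 genes that were lower stayed lower.

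**Figure D2:**
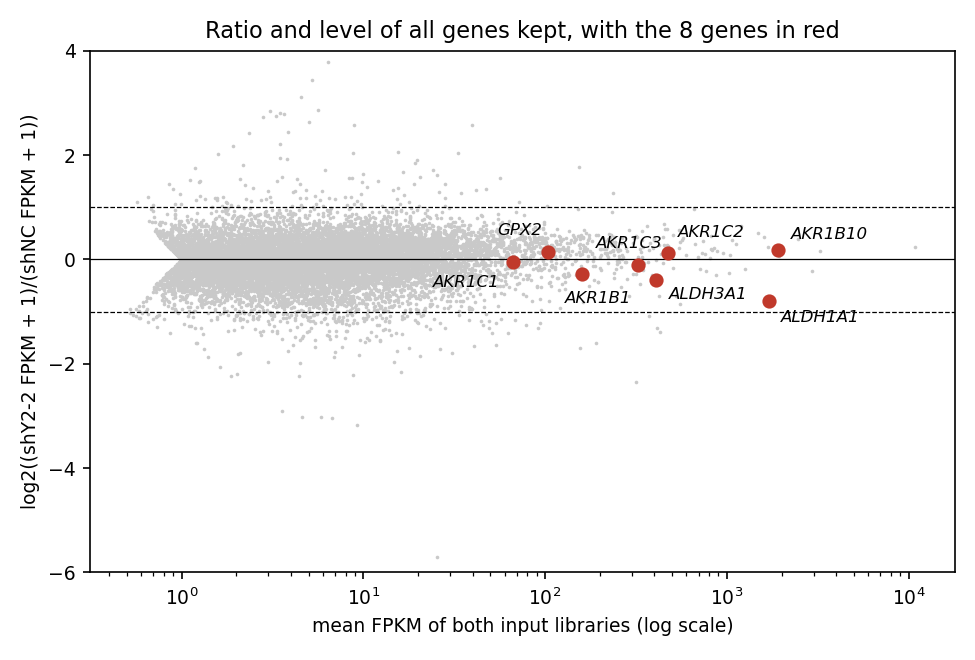
Log2 ratio of shY2-2 over shNC (vertical) against the mean FPKM of both input libraries on a log axis (horizontal), 1 point per gene for the 12268 genes kept, the 8 genes in red, with dashed lines at log2 ratios of -1 and 1. ALDH1A1 (-0.80) is the red point nearest to the lower line.

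The 3 genes nearest to AKR1B10, the member of highest mean FPKM, in the plane of both log2 levels were MT-RNR2, MT-CO2 and RPL41. MT-RNR2 had an FPKM of 1899 in shNC and 1996 in shY2-2, MT-CO2 of 1547 and 1820, and RPL41 of 1366 and 1834. The likeness rests on 2 libraries and says only that these RNAs stood at similar levels.

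The labelled cell type was checked with marker lists, of which A549 cells should express the epithelial one. The 5 of 6 epithelial markers that passed the FPKM filter were all lower in shY2-2, with a median log2 ratio of -0.70. By this ratio 3 of them were lower by more than 1.5-fold, KRT19 the most (25.9 in shNC, 12.9 in shY2-2, log2 ratio -0.95). EPCAM (2.02 and 1.20) and KRT18 (388 and 281) both had a log2 ratio of -0.46. At the low level of EPCAM the pseudocount makes the ratio smaller in size, and by plain FPKM EPCAM differed more than KRT18. KRT8 and KRT18, keratins of simple epithelia, made up most of the list, whose summed FPKM was 949 in shNC and 623 in shY2-2. None of the 5 alveolar and club cell markers in the table reached an FPKM of 1 in either library, and the surfactant gene SFTPC had 0.03 and 0.07. Among leukocyte markers PTPRC stood at 0.10 and 0.04 and only CD14 passed the filter (3.56 and 2.97), and among fibroblast and endothelial markers only COL1A1 did (0.83 and 1.64). ALDH1A1 and the epithelial markers were both lower in the shY2-2 library, and the part of the latter in the former was not tested. In RNA from whole cultures, fewer cells that express a gene and less RNA per cell cannot be told apart.

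Relatives of the 8 genes were compared through lists of families. Beyond the members, 13 ALDH genes passed the filter, 6 of them higher and 7 lower in shY2-2, with a median log2 ratio of -0.06. ALDH1L2, a mitochondrial folate dehydrogenase, had an FPKM of 2.50 in shNC and 0.64 in shY2-2 (log2 ratio -1.10). By this ratio it was the only one past 1.5-fold. ALDH2, with an FPKM of 13.5 and 8.69 (log2 ratio -0.58), fell just short of the limit through the pseudocount and passed it by plain FPKM. ALDH1A3, which like ALDH1A1 makes retinoic acid, had the highest log2 ratio of the list, 0.35, with an FPKM of 4.56 and 6.08. The 16 further ALDH genes of the table, with those that did not pass, summed to an FPKM of 165 in shNC and 164 in shY2-2.

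Of 11 further AKR genes in the table, 5 passed the filter, 3 higher and 2 lower, with a median log2 ratio of 0.16. AKR1E2 had the highest log2 ratio, with an FPKM of 2.37 in shNC and 4.47 in shY2-2 (0.70, the only one past 1.5-fold). AKR1A1, the general aldehyde reductase, had the lowest log2 ratio, -0.11, with an FPKM of 15.3 and 14.1. AKR1B15, the near copy of AKR1B10, had 10.3 and 11.6 (log2 ratio 0.16, beside 0.18 for AKR1B10). AKR1C4, the liver form of the AKR1C genes, stood at 0.51 and 0.57 and did not pass the filter.

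GPX1, the glutathione peroxidase found in most cells, had an FPKM of 63.8 in shNC and 30.2 in shY2-2, a log2 ratio of -1.05. GPX2 differed in the other direction, and GPX4, the peroxidase of membrane lipids, had the highest log2 ratio of the family, 0.35, with an FPKM of 49.4 and 63.1. The 4 glutathione peroxidases beyond GPX2 that passed, 2 higher and 2 lower, had a median of -0.05.

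The lists of other detoxifying enzymes showed values on both sides of 0. Glutathione transferases were higher in 7 of 10 genes and had a median log2 ratio of 0.14, from -0.37 for GSTM4 to 0.62 for GSTA4. Other carbonyl and alcohol oxidoreductases were higher in 5 of 13 genes and had a median of -0.04, from -0.84 for SORD, which takes up the sorbitol that AKR1B1 makes, to 0.69 for DHRS3, a reductase of retinal. None of the genes of either list passed a log2 ratio of 1.

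The 28 genes of the NRF2 pathway list all passed the filter, 18 higher and 10 lower in shY2-2, with a median log2 ratio of 0.24. In this list 3 of the 28 genes were above 1, where 0.986% of the genes kept were. The genes kept were not matched to the list in level. HMOX1, heme oxygenase, had an FPKM of 69.4 in shNC and 238 in shY2-2 (log2 ratio 1.77), SRXN1, sulfiredoxin, had 138 and 334 (log2 ratio 1.27), and OSGIN1 had 18.2 and 38.3 (log2 ratio 1.03). PGD, an enzyme of the pentose phosphate pathway that produces NADPH, had the lowest log2 ratio, -0.86, with an FPKM of 712 and 393. The AKR genes, which share this regulator as background knowledge, lay between these extremes, from -0.27 to 0.18. Relative to the abundant genes, with a median of 0.18, the median of the NRF2 list was 0.06.

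**Figure D3:**
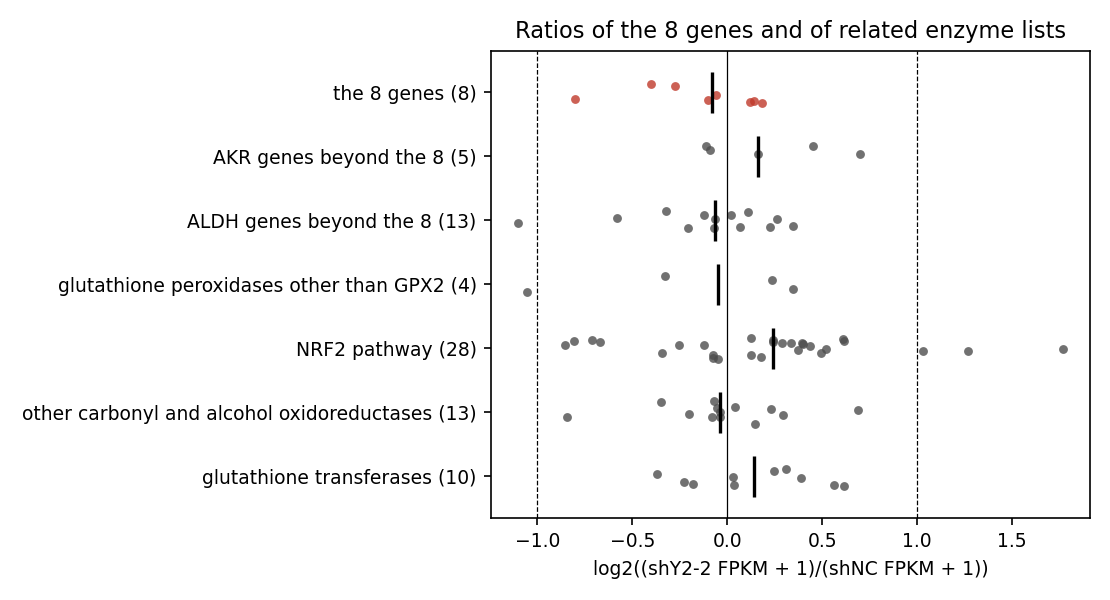
Log2 ratio of shY2-2 over shNC for each gene that passed the filter (points), by list, with the number of genes in parentheses, a thick bar at each list's median and dashed lines at -1 and 1. The 8 genes (red) lie between -0.80 and 0.18, and the 3 points to the right of 1 are HMOX1, SRXN1 and OSGIN1.

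The m6A peaks were those the authors called in each line with exomePeak from the IP library against the input library. A fold enrichment is the ratio of IP over input signal across the peak, and the number of reads behind it is unknown. The 8 genes had 30 peaks in shNC and 31 in shY2-2, all in the 7 genes of the AKR and ALDH families but for 1 that the shNC list gives to GPX2. A peak in both lists was part of the choice, which 7 of the 8 genes met, so that their share is no result. Of all genes kept, 72.8% had a peak in both lists, and 85.4% of the 364 abundant genes did. The members had 3.75 and 3.88 peaks per gene, against 2.59 and 2.29 per gene with a peak over all genes. The latter genes were not matched to the members in level or by a peak in both lists.

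The peaks of the 8 genes had low false discovery rates and moderate fold enrichments. All peaks, given beside them, were not matched for level or for a peak in both lists, which were grounds of the choice. Whether the enzymes differ from other genes in these values can therefore not be read from them. Their deposited false discovery rate was at most 0.05 for 28 of 30 peaks in shNC and 31 of 31 in shY2-2, where 56.4% and 52.1% of all peaks reached it. Their median fold enrichment was 1.84 in shNC and 1.93 in shY2-2, against 2.17 and 2.26 over all peaks, and 18 and 20 of the peaks lay below the list's median. Their fold enrichments ran from 1.10 to 10.7 in shNC and from 1.07 to 4.63 in shY2-2.

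Most of the peaks were found in both lines. In shNC, 26 of the 30 peaks (86.7%) shared at least 1 exonic base on the same strand with a peak of the shY2-2 list, and in shY2-2, 28 of 31 (90.3%) met a peak of the shNC list. Over all peaks the shares were 55.9% and 65.4%. High level and a peak in both lists were grounds of the choice of the enzymes, and the set of all peaks was not matched for either. Whether the enzymes differ from other genes in this share can therefore not be read from these values. The 29 overlapping pairs had a higher fold enrichment in shY2-2 in 12 cases and a lower one in 17, with a median ratio of 0.97, beside 0.95 over the 21726 pairs of the lists. At the median, the enrichment of the paired peaks thus lay close to the same level in both lines. Single pairs differed more, with ratios from 0.43 in AKR1C3 to 2.02 in ALDH1A1, and peaks without a partner are not counted here.

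**Figure D4:**
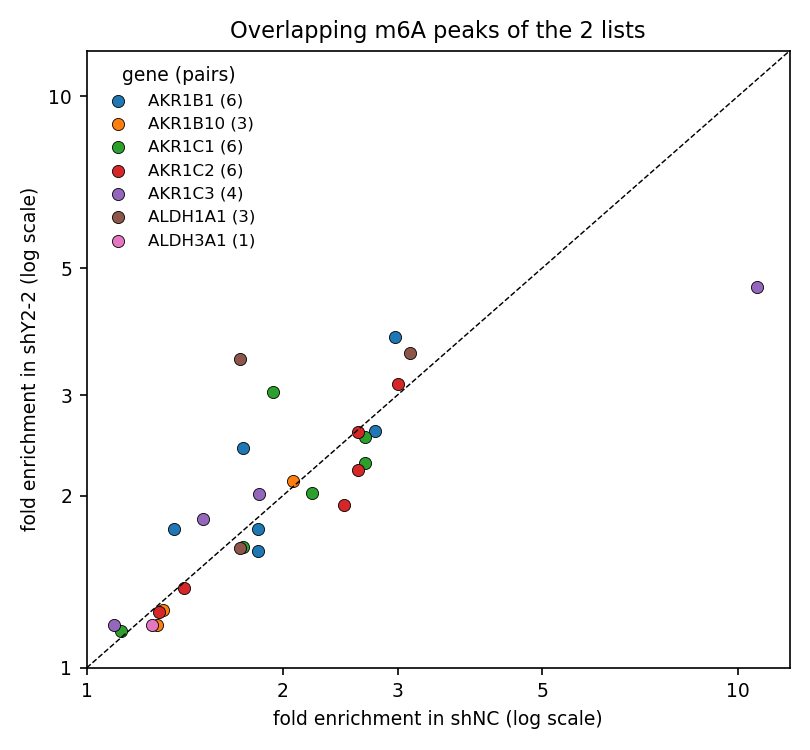
Fold enrichment in shNC (horizontal) against shY2-2 (vertical), both log axes, 1 point for each of the 29 pairs of overlapping peaks, coloured by gene, with a dashed line of equality. Most points lie along the line, and the AKR1C3 pair at 10.7 and 4.63 lies furthest to the right.

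Among peaks on exons of their own gene, AKR1C3 had the one with the highest enrichment, at its 5′ end. It covered mRNA positions 1 to 400, exons 1 to 3, of the 1186 nt transcript in both lines, with a fold enrichment of 10.7 in shNC and 4.63 in shY2-2. Both peaks held the same length of AKR1C3 exons, 844 nt, of which 400 nt lie in the canonical mRNA. The shY2-2 peak was longer in all, 1343 nt against 925 nt, so that the fold enrichments average over different spans. In shNC, 2.45% of all peaks were at least this enriched. The other 3 peaks of AKR1C3 had fold enrichments of 1.10, 1.51 and 1.84 in shNC and 1.19, 1.82 and 2.01 in shY2-2, higher in shY2-2 each time.

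AKR1C2 showed the same layout as AKR1C3 at its start, with a peak over mRNA positions 1 to 391 and a fold enrichment of 3.00 in shNC and 3.13 in shY2-2. In all, the peak was 1108 nt long in shNC and 540 nt in shY2-2, with 391 nt in the canonical mRNA each time. These values, too, average over different spans. Further down, a peak over the last coding bases and the 3′ UTR had 2.61 in shNC and was split in shY2-2 into peaks of 2.58 and 2.22. In its 2224 nt 3′ UTR a pair of further peaks had 1.29 and 2.48 in shNC and 1.25 and 1.93 in shY2-2.

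AKR1C1, whose canonical mRNA has a 3′ UTR of 5544 nt, had its start covered by peaks of 2.22 and 1.74 in shNC and 2.02 and 1.63 in shY2-2. A peak across the stop codon had 2.67 in shNC and met peaks of 2.28 and 2.53 in shY2-2. In the 3′ UTR, a peak around mRNA positions 2236 to 2954 had a fold enrichment of 1.93 in shNC and 3.04 in shY2-2. A peak at positions 5137 to 5436, with 6.10 in shNC, was not in the shY2-2 list. It was a weak call, with a deposited false discovery rate of 0.047.

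Most of the windows printed above lie under these peaks. The window at coding position 184, identical in the 3 genes, was under a peak of 1.74 in AKR1C1, 3.00 in AKR1C2 and 10.7 in AKR1C3 in shNC, and of 1.63, 3.13 and 4.63 in shY2-2. Each value is an average over a whole peak, of which only a part lies in the canonical mRNA, and does not describe the window itself. The window at position 324, without GGAC in AKR1C1, lies in AKR1C1 under the same peaks as the first window. At position 541, the GGAC of AKR1C3 lay outside the peaks of shNC and at the edge of the peak of 1.19 in shY2-2, which was 210 nt long where the shNC peak was 180 nt. The AKR1C1 window at this position, without GGAC, lay under a peak of 1.13 in shNC and 1.16 in shY2-2. The AKR1C2 window at this position, also without GGAC, lay outside the peaks of both lists.

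Some fragments of these genes may be hard to assign. The coding sequences of AKR1C1 and AKR1C2 are 98.0% identical, with 19 differences in 969 nt, and AKR1C3 is 91.4% identical to AKR1C1 and 91.0% to AKR1C2. Around coding position 184 the identical stretch is 96 nt long between AKR1C1 and AKR1C2 and 112 nt between AKR1C1 and AKR1C3. Of the 100 nt windows of the canonical mRNA, 27.8% in AKR1C2, 12.6% in AKR1C1 and 7.82% in AKR1C3 occur in a transcript of another gene as well. The paper describes paired reads longer than these windows, and how many could not be placed on a single gene is unknown. FPKM and fold enrichments of AKR1C1 and AKR1C2, and less so of AKR1C3, may therefore be uncertain where reads could be split between them. AKR1B10 shares 1.97% of its windows with AKR1B15 or the pseudogene AKR1B10P1, and the other 4 genes share none.

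**Figure D5:**
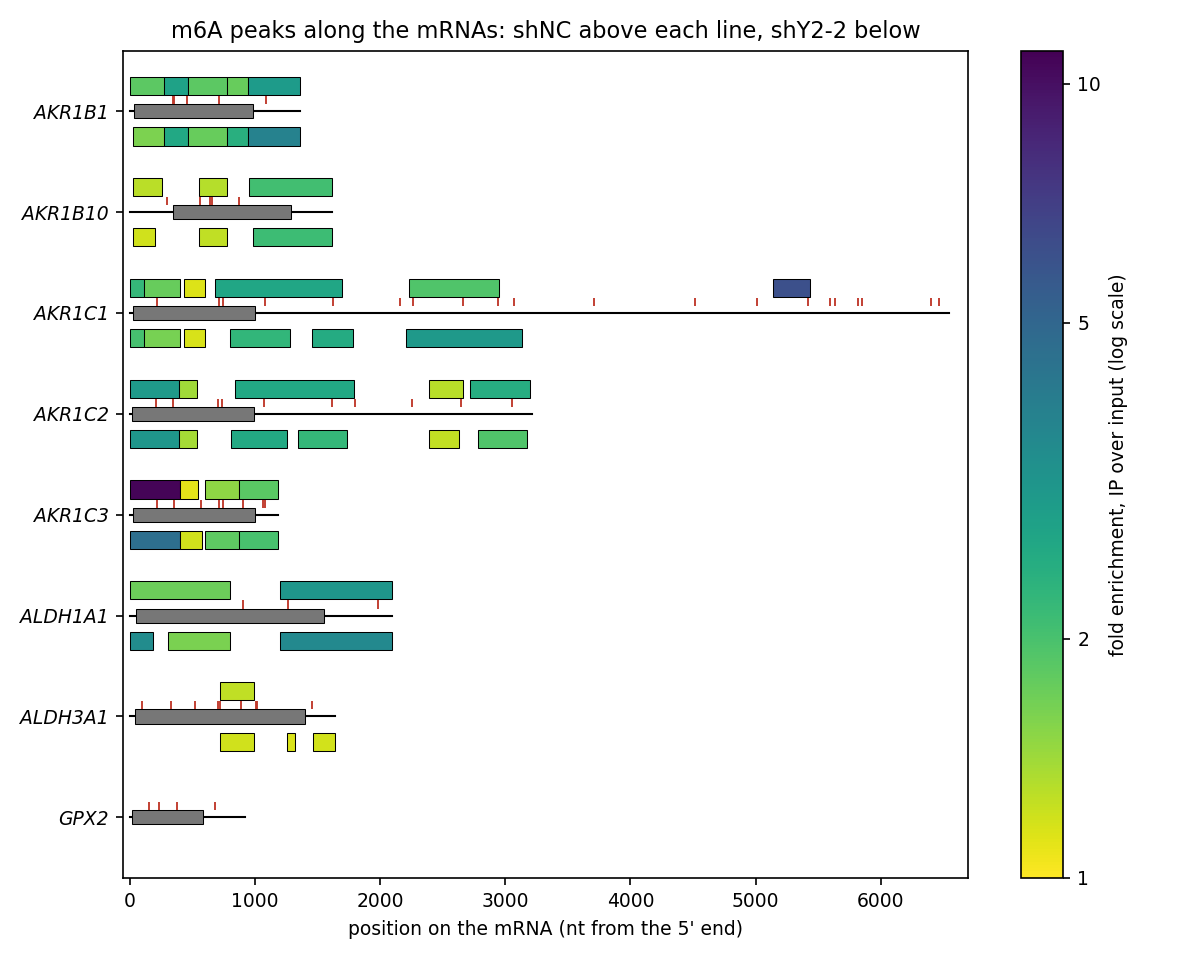
m6A peaks along the canonical mRNA of each gene, in nt from the 5′ end, with shNC peaks above the line and shY2-2 peaks below it, coloured by fold enrichment on a log scale. Grey boxes are coding sequence and red ticks are GGAC; AKR1C3 starts with the darkest box (10.7), and GPX2 has no peak on its mRNA.

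AKR1B1 was covered by peaks almost from end to end, 100% of its 1361 nt mRNA in shNC and 98.1% in shY2-2. Its last exon, with the stop codon and the 3′ UTR, had the highest fold enrichment of the gene, 2.97 in shNC and 3.79 in shY2-2. The peak over exons 3 and 4, which holds the GGACT window printed above, had 2.77 and 2.60. The peak over exons 8 and 9 had 1.74 in shNC and 2.42 in shY2-2.

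AKR1B10, with an FPKM far above that of AKR1B1, had weaker peaks. A peak in its 5′ UTR had a fold enrichment of 1.28 in shNC and 1.19 in shY2-2, a peak in the coding sequence 1.31 and 1.26, and the peak over the end of the coding sequence and the 3′ UTR 2.07 and 2.12. This last peak was called with a false discovery rate listed as 0 in both lines and held no GGAC. The GGACT window of AKR1B10 lay outside the peaks of both lists.

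ALDH1A1, the gene with the largest difference in FPKM, had the same peak of 900 nt over the end of its coding sequence and its 3′ UTR in both lines, with a fold enrichment of 3.13 in shNC and 3.56 in shY2-2. The GGACT window in its 3′ UTR lies within this peak. At the 5′ side 1 peak of shNC, with a fold enrichment of 1.72 over 1020 nt, met a pair of peaks in shY2-2, with 3.47 at the first exons and 1.62 further on. Of the 631 nt of the peak of 3.47, 190 nt lie in the canonical mRNA and 271 nt are shared with the shNC peak. These values therefore average over different spans. ALDH1A1 had only 3 GGAC in 2096 nt, or 1.43 per kb, the lowest density of the 8 mRNAs, where AKR1C3 had the highest with 6.75 per kb.

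ALDH3A1 had low enrichment on its canonical mRNA. The peak over exons 5 to 7, with the GGACT window, had a fold enrichment of 1.26 in shNC and 1.19 in shY2-2 and was the only one found in both lists. Peaks of shNC outside the canonical transcript had 1.61 and 2.19, and the 3 further peaks of shY2-2 had between 1.07 and 1.18. For 1 of these, chr17:19738394-19738542, all 149 nt lie in exons of an antisense gene, ENSG00000264785, and 60 nt in an ALDH3A1 exon. The share of the ALDH3A1 mRNA under peaks was 16.5% in shNC and 30.8% in shY2-2.

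GPX2 had no peak on its own exons in either list. The peak that the shNC list gives to it, chr14:64935019-64943307, with a fold enrichment of 10.7, spans the gene, but none of its 359 exonic nt lies in a GPX2 exon, and all of them lie in exons of CHURC1 on the opposite strand. The GPX2 mRNA holds 4 GGAC, 1 of them GGACT, and all are outside peaks. At its FPKM of 98.3 and 109, only 2.58% of the genes kept were higher in shNC and 2.45% in shY2-2. Of the 316 coding genes among the abundant ones, 6.01% had less than 1% of their mRNA under peaks in both lists.

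By position, the peaks of the 8 genes covered both coding sequence and 3′ UTRs. In shNC 5314 nt of coding sequence, 4694 nt of 3′ UTR and 411 nt of 5′ UTR of the canonical transcripts were under peaks, and in shY2-2 5160, 4421 and 326 nt. The authors' annotation placed 13 peaks in the 3′ UTR, 9 in the 5′ UTR and 8 in other exons in shNC, and 15, 6 and 10 in shY2-2. Of the peaks it placed in the 3′ UTR, 3 in each list, all in AKR1B1, hold no 3′ UTR base of the canonical transcript. The share of the mRNA under peaks in shNC ran from 0 in GPX2 and 16.5% in ALDH3A1 to 95.6% in AKR1C3 and 100% in AKR1B1, beside a median of 47.2% over the 316 abundant coding genes and 16.8% over the coding genes kept.

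The motif GGAC was searched on the strand of the gene, in the spliced sequence of each peak. It was in 19 of 30 peaks of shNC (63.3%) and 20 of 31 of shY2-2 (64.5%), and over all peaks in 61% and 60.6%. The peaks of the 8 genes are longer than most, and among all peaks of similar length a mean of 73.2% in shNC and 71.3% in shY2-2 held GGAC. Per length, peaks of the 8 genes held 2.81 and 2.85 GGAC per kb, against 4.10 and 3.95 per kb over all peaks. GGACT, a longer form counted within GGAC, was in 10 and 9 of the peaks.

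On the 8 mRNAs as a whole there were 64 GGAC, of which 29 lay under a peak in both lists, 17 in coding sequence and 12 in 3′ UTRs, and 29 lay under a peak in neither list. Of 13 GGACT, 9 lay under a peak in both. At least 1 GGACT was under peaks in both lists in AKR1B1, AKR1C1, AKR1C2, AKR1C3, ALDH1A1 and ALDH3A1, and none in AKR1B10 and GPX2. A motif under a peak is a match of letters, since a peak that long does not say which adenosine is methylated.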

How the data were processed

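RNA-seq (input) and m6A-seq (IP) libraries of A549 cells, 1 per line, were grouped by their labels. HISAT2 served the authors to align reads to GRCh38, and the deposited FPKM per gene are their StringTie values from the input libraries. The deposited fold enrichment, a ratio of IP over input, the p-value of each peak and its log10 false discovery rate, a score, come from the authors' exomePeak calls, annotated with ChIPseeker. The submitters' processing notes also name fastp and HOMER. Tool versions and the annotation release are not given in the sources used here, and depth is unknown.

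The 8 genes and the lists were chosen with earlier results of these data known. Ratios used a pseudocount of 1 and genes that reached an FPKM of 1 in an input library. Genes named beyond the 8 are YTHDF2, the highest and lowest ratio of each list and those past a log2 ratio of 1, and the 3 genes nearest to the member of highest mean FPKM; other relatives and markers were named after their values were seen. Peaks were compared by exonic blocks on the same strand, which is the annotated gene's, since the lists carry no strand of their own. Canonical transcripts came from GENCODE release 44, with the stop codon counted in the 3′ UTR. Peaks within 10% of a peak's length counted as similar in length. No test was made, and leaving out replicates was impossible. The steps were tested on simulated data. Alternatives were another pseudocount, FPKM filters, centring, peak filters, overlap and motif. Python 3.11.15 with NumPy 2.4.6, pandas 2.3.3, pysam 0.24.0, Biopython 1.88 and matplotlib 3.10.9 were used.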

Additional observations from a re-analysis of the deposited data

How the results depend on the processing

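Of 135 values recomputed under alternatives, 108 stayed close (within 0.1 in log2 ratio, or 1.5 times for a count), 21 moved and 6 changed sign. None of the 8 genes changed direction with a pseudocount of 0.1, an FPKM filter of 5, no filter or centring on the median of genes that reached an FPKM of 1 in both libraries. Centring on the 364 abundant genes, chosen after seeing the data, moved the median of the 8 genes from -0.08 to -0.26 and turned AKR1C2 (-0.057), GPX2 (-0.033), the median of the further AKR genes (-0.017) and that of the glutathione transferases (-0.035) to lower values in shY2-2. With an FPKM filter of 5, the medians of the further ALDH genes and of the other carbonyl and alcohol oxidoreductases changed sign, to 0.066 and 0.043, since fewer genes remained. Peaks with a fold enrichment of at least 2 left 13 of 30 in shNC and 15 of 31 in shY2-2, of which 20 met the other list and 22 held GGAC. GGACT in place of GGAC left 19 of 39 peaks. Counting only peaks with at least 50% of their bases in exons of their gene, also chosen after seeing the data, gave 29 and 30 peaks, and 7 genes in both lists as before.

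Leaving out a library was impossible, as each kind has 1 per line. FPKM and fold enrichments carry no counts, so the precision of single values cannot be given, nor how far the shared sequence of the AKR1C genes lowers it.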
